A study of Drosophila melanogaster with 75 samples.

Results

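The 5 control arrays of a series of 15 were used to describe the transcriptome of *Drosophila melanogaster* male heads when no female was present. They were chosen by title alone, as the 2hr_control arrays with replicate numbers 1 to 5, and each was hybridized with RNA from a pool of 30 heads, which makes 150 heads in all. The other arrays of the study came from 5 pools of males that had mated with a virgin female and 5 pools of males that had courted a cauterized virgin female. All males in the 3 groups were isogenized Canton-S, a standard laboratory wild type, were 5 days old, and carried no transgene or mutant allele named in the labels. Every male was raised in company, was housed singly from day 4, and was taken 2 hrs after the mated male of its set had finished copulating, and control males were handled in the same way with no female added to the vial. Heads were knocked off frozen flies by vortexing and were not dissected further. How much of each head tissue, antennae included, a pool held is not given in the sources used here, and fewer cells of a type and less RNA per cell cannot be told apart.

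The adult fly head is dominated by the compound eyes, whose photoreceptors turn light into a change of voltage through rhodopsin, a G protein, a phospholipase and the TRP channels, and by the brain, whose neurons and glia run courtship among other behaviours. Antennae and maxillary palps carry odorant receptors and, around them, secreted odorant-binding proteins. A layer of fat body lines the head capsule, stores and exports lipid and protein, and makes antimicrobial peptides when the Toll and Imd pathways are active.

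Levels are log2 of the GC-RMA intensity that the authors computed in R/Bioconductor, given for control pools 1 to 5 in that order. Intensities of different probe sets do not compare amounts of RNA, so a rank by level is a rank of array signal. Each gene was read from its brightest probe set with 1 gene symbol. Probe sets with no symbol or several symbols were not ranked. A gene was called above the threshold when its mean intensity over the 5 control pools was above 100. Of 11982 genes, 6394 passed (53.4%), 5588 did not, and 4513 lay under 4 on the log2 scale in every control pool, where GC-RMA places probe sets with no signal over its background estimate. *CG15529*, with a mean intensity of 100.06, was the last gene inside the threshold and *LRR*, with 99.87, the first outside.

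The 15 arrays were alike in the share of probe sets above 100 by GC-RMA. Between 40.3% and 40.6% of probe sets were above 100 on the mated arrays, between 40.1% and 40.9% on the courted arrays and between 40.2% and 40.8% on the control arrays. By other algorithms the arrays differed in signal. The median MAS5.0 intensity was 50.3 to 59.7 on the mated, 43.1 to 61.3 on the courted and 51.4 to 64.5 on the control arrays. The median dChip PM intensity was 139.9 to 158.9, 128.7 to 148.7 and 136.0 to 160.8 in the same order. Pairwise Pearson correlations among the 5 control arrays over 7622 probe sets lay between 0.9745 and 0.991. The arrays also differed in the ratio of 3′ to 5′ probe sets of the same control transcript, a sign of RNA length. The 3′ minus 5′ difference of *eIF-4a* was 1.25 to 1.57 on the mated arrays, 1.16 to 6.0 on the courted arrays, where courted pool 4 was far above the rest, and 1.57, 2.08, 1.40, 1.40 and 1.23 in control pools 1 to 5. Control pool 2 was also the highest control pool for GAPDH, at 1.05 against 0.59 to 0.70 in the other 4 control pools.

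The brightest genes of control heads were those of vision, protein synthesis and secreted head proteins. Of the 30 genes with the highest mean level, 13 encoded cytosolic ribosomal proteins, 3 belonged to phototransduction and the visual cycle, 2 were odorant-binding proteins, and 2 were fat body products, *Tsf1* (transferrin, an iron carrier) and *apolpp* (apolipophorin, a lipid carrier). A neuropeptide precursor, an immune-induced peptide and a chemosensory protein gave 1 gene each, and 7 genes were in none of the 38 lists. The last gene inside the 30 was *apolpp* at 14.61 and the first outside was *RpL32* at 14.60.

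*Arr2*, the major arrestin that quenches activated rhodopsin, was the brightest of the ranked genes, at 15.21, 15.25, 15.35, 15.32 and 15.31. *Arr1*, the other visual arrestin, read 14.82, 14.74, 14.89, 14.90 and 14.89, and *Pdh*, the photoreceptor dehydrogenase of the retinoid cycle, read 14.80, 14.77, 14.87, 14.81 and 14.87. The 3 visual genes differed by at most 0.16 log2 units between control pools. Just outside the 30, *Gbeta76C*, the G protein beta subunit of the eye, averaged 14.59 ± 0.06 (SD, n = 5), and *retinin*, a secreted protein of the corneal surface, was inside at 14.65 ± 0.07.

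The next genes were drawn from other functions. *MtnA*, a metallothionein that binds copper and other metals, read 15.21, 15.10, 15.18, 15.35 and 15.12. *Nplp2*, a neuropeptide-like precursor, read 15.21, 15.07, 15.22, 15.22 and 15.22, with only pool 2 set apart from the others. *RpL15*, a large-subunit ribosomal protein, read 15.17, 15.13, 15.19, 15.18 and 15.11. *Bbd*, or Bombardier, a secreted partner of the Bomanin immune peptides, varied more, at 15.20, 15.07, 14.91, 15.19 and 15.20, and was lowest in pool 3. *sesB*, the mitochondrial ADP/ATP translocase, was steady at 15.00, 14.98, 14.94, 14.99 and 15.00. The secreted proteins *EbpIII* (14.82 ± 0.04), *Obp99c* (14.77 ± 0.09), *IM33* (14.74 ± 0.09), *Tsf1* (14.74 ± 0.10) and *Obp19d* (14.65 ± 0.07; SD, n = 5 each) followed with small spreads, as did *fabp*, a fatty acid binding protein, at 14.67 ± 0.05.

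**Figure D1:**
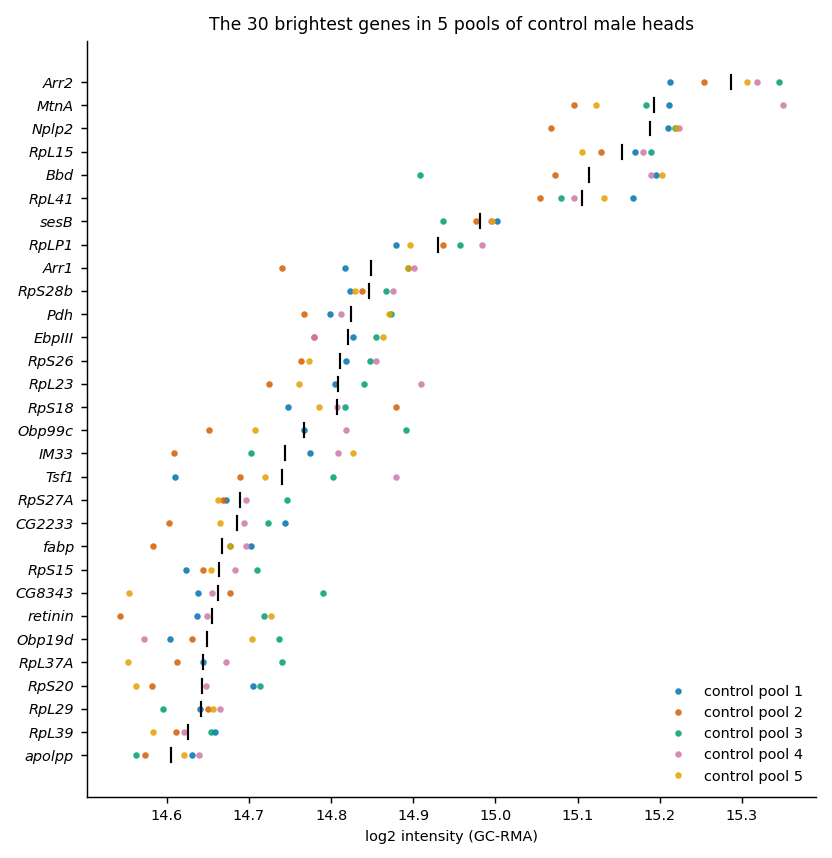
The log2 GC-RMA level of the 30 brightest genes (rows, brightest at the top) in each of the 5 control pools (points), coloured by pool, with the mean over the pools (black bar). *Arr2* stands at the top with a mean of 15.29 and *apolpp* at the bottom with 14.61, and the pool colours change order from gene to gene.

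The order of the brightest genes depended little on the algorithm. All 30 were among the 100 brightest by dChip PM, MAS5.0 and GeneSpring GC-RMA, and 27, 23 and 30 of them were among the 30 brightest by those algorithms. *Arr2* ranked first by each. Across all 11982 genes, Spearman's rho of mean level with GC-RMA was 0.937 for dChip PM, 0.961 for MAS5.0 and 0.975 for GeneSpring GC-RMA; genes are not independent replicates, and the algorithms share the same arrays.

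Lists of genes by function and tissue were set against the 53.4% of all genes above the threshold. Visual and glycolytic genes were bright. All 19 phototransduction genes measured were above the threshold (median level 12.87), among them *trp*, the light-activated channel (13.90 ± 0.11), *trpl*, its partner (14.10 ± 0.10), and *chp*, chaoptin, a photoreceptor adhesion protein (13.91 ± 0.09; SD, n = 5 each). All 11 glycolytic genes passed, with a median of 13.41, led by *Gpdh1* at 14.07 and *Eno*, enolase, at 13.83. All 69 mitochondrial ribosomal proteins passed at a median of 9.67, against 33 of 41 cytosolic ribosomal proteins at a median of 14.37. Respiratory chain and ATP synthase subunits passed in 55 of 75 cases (median 12.78), led by *ATPsynF* at 14.56.

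Neural and glial genes were well represented. Of 24 neuronal genes, 19 passed, with *Gad1*, which makes GABA, at 13.69 ± 0.09, *Snap25*, a SNARE protein of synaptic vesicle fusion, at 13.62 ± 0.13, and *Syn*, synapsin, at 12.48 ± 0.07 (SD, n = 5 each). Of 13 glial genes, 12 passed, among them *Gs2*, a glutamine synthetase (13.22 ± 0.06), *Eaat2*, an amino acid transporter (13.03 ± 0.05), *alrm*, an astrocyte marker (12.16 ± 0.17), and *repo*, the glial homeobox factor (9.59 ± 0.01). All 11 clock genes measured passed, with *cwo* at 12.33, *cry* at 11.82, *tim* at 8.84 and *per* at 7.35; the methods state that the work was done at the same time each day, so these are levels at 1 time of day.

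Neuropeptide precursors passed in 20 of 26 cases. After *Nplp2* came *Nplp3* at 14.49, *Ms*, myosuppressin, at 13.12, *AstC*, allatostatin C, at 12.71, and *Pdf*, the peptide of the clock neurons, at 11.36. *Akh*, adipokinetic hormone, which is made in the corpora cardiaca beside the oesophagus, read 1.73 in all 5 pools. Of 13 genes of sex determination and dosage compensation, 10 passed and all stood in the middle range, with *Sxl* at 9.87, *tra2* at 9.84, *fru*, which builds the male courtship circuit, at 9.70, *mle* at 9.62, *tra* at 9.27 and *dsx* at 9.14. *Sxl*, *tra*, *fru* and *dsx* act through sex-specific splicing, and which splice forms their probe sets detect was not tested.

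Fat body and antimicrobial genes were also bright. Fat body products passed in 12 of 15 cases (median 12.71), including *FASN1*, fatty acid synthase, at 14.43, *Lsp2*, a storage protein, at 12.92, and *fit*, a female-biased secreted protein of the head fat body, at 12.71. Ferritin was high in both chains, *Fer2LCH* at 14.27 and *Fer1HCH* at 14.20. Of 23 antimicrobial and immune-induced peptide genes, 19 passed with a median level of 12.99, and 11 of 14 haemocyte genes, those of the blood cells, passed, with *NimB2* at 13.05, *Pxn* at 9.95, *Hml* at 8.87 and *NimC1* at 7.96.

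**Figure D2:**
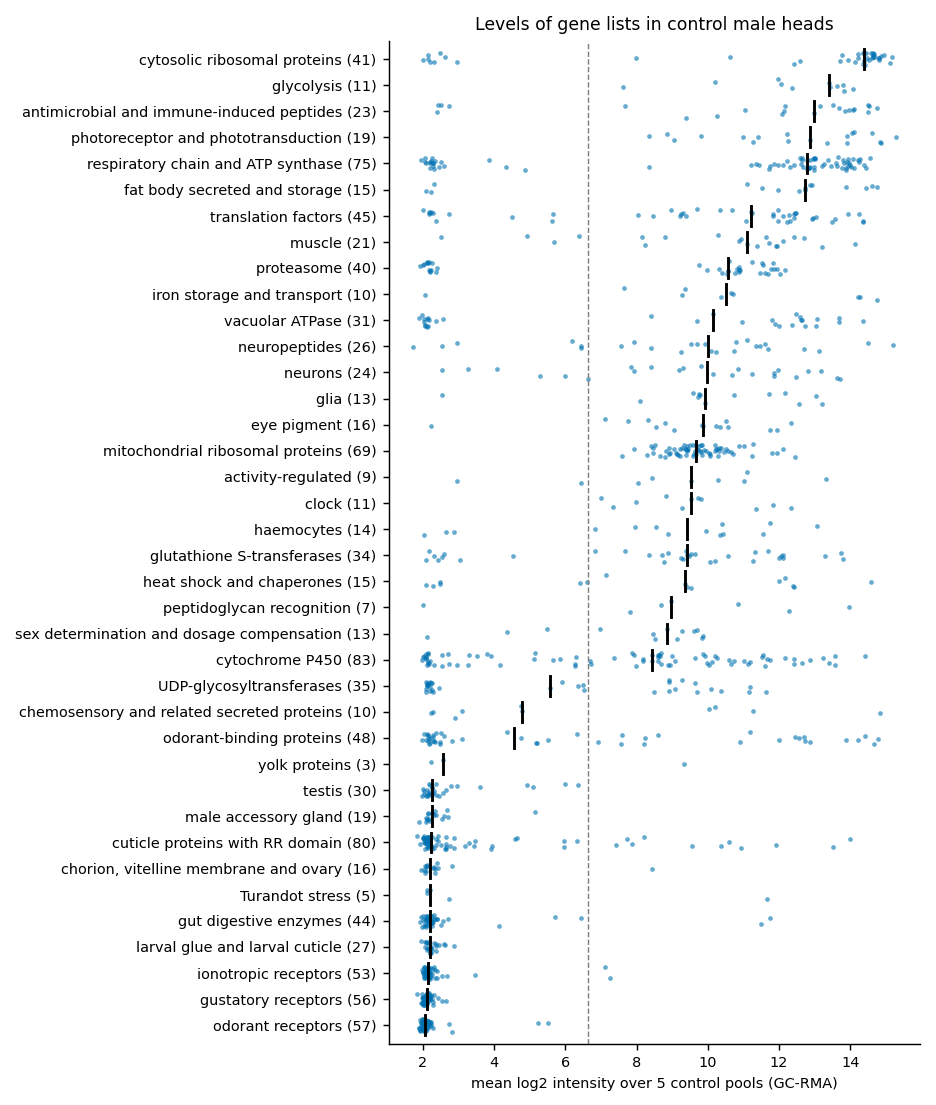
The mean log2 GC-RMA level over the 5 control pools of each measured gene (points) in each gene list (rows), with the number measured in brackets, the median of the list (black bar) and the level of the threshold of 100 (dashed line). Phototransduction, glycolysis and ribosomal lists lie to the right, and the testis, accessory gland, odorant receptor and gustatory receptor lists lie near 2.

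Other tissues and receptors were at the low end. None of 30 testis genes, 19 male accessory gland genes, 27 larval glue and larval cuticle genes, 57 odorant receptors or 56 gustatory receptors was above the threshold by GC-RMA. By dChip PM, where 88.8% of all genes were above 50, 19, 10, 15, 27 and 31 of them were, and by MAS5.0, where 59.3% of all genes were above 100, 2, 1, 0, 1 and 0 were. The 21 defining markers of testis, accessory gland, gut and ovary that were measured had means between 1.91 and 4.15, and none passed. Of 44 gut digestive enzyme genes, 2 passed, *Ser7* at 11.75 ± 0.21, which is annotated as a serine protease, and *Mal-A5*, a maltase, at 11.48 ± 0.11 (SD, n = 5 each). Of 16 ovary and eggshell genes, only *grk*, the gurken ligand, passed, at 8.44 ± 0.14. The yolk protein genes, which are made in the female fat body, were split, with *Yp3* at 9.34 ± 0.09 and *Yp1* and *Yp2* at 2.57 and 2.22.

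Chemoreceptors differed from the binding proteins that surround them. *Orco*, the co-receptor that odorant receptors need, read 2.66, 3.10, 2.65, 2.63 and 2.65, and the brightest odorant receptors were *Or43b* at 5.51 and *Or63a* at 5.24, both below the threshold. Of 53 ionotropic receptors, 2 passed, *Ir76a* at 7.27 and *Ir75a* at 7.11. In contrast, 20 of 48 odorant-binding protein genes passed, and *Obp44a* (14.40 ± 0.12) and *Obp56d* (14.22 ± 0.08) were close to the 30 brightest. In the cuticle protein family with an RR domain, 11 of 80 passed, led by *Cpr65Au* at 13.99. Among enzymes that act on foreign compounds, 50 of 83 cytochrome P450 genes passed, led by *Cyp313a1* at 14.40, as did 26 of 34 glutathione S-transferases, with *GstD1* at 13.75, and 13 of 35 UDP-glycosyltransferases.

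In the proteasome and respiratory chain lists, most genes below the threshold were named after another subunit. All 14 proteasome genes below the threshold carried the name of another subunit with an added T, R or L, and had means between 1.91 and 2.39, whereas the 10 subunits they are named after averaged 10.32 to 11.85. Of 18 respiratory chain genes so named, 17 were below the threshold, and *COX7AL2* was the exception at 12.21 ± 0.06 (SD, n = 5). *UQCR-11*, which *UQCR-11L* is named after, was itself below the threshold at 4.88, and some of the other subunits were not measured. Cytosolic ribosomal proteins below the threshold numbered 8, and 7 of these lay under 4.

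Most defining markers of head cell types were above the threshold, and 3 of those measured were not. *elav*, the standard neuronal marker, read 3.29, 3.12, 3.15, 3.37 and 3.45, and *brp*, the active zone protein, read 5.94, 5.93, 5.93, 5.94 and 6.21. Both were below the threshold in all 5 pools although *nSyb*, the third neuronal marker measured, averaged 10.69. By MAS5.0, 21 of the 24 neuronal genes were above 100 (59.3% of all genes), and by dChip PM all 24 were above 50 (88.8% of all genes). Noticed after their values were seen, *para*, the voltage-gated sodium channel, was at 2.54, and *cn*, an enzyme of brown eye pigment, was at 2.24 and was the only eye pigment gene of 16 below the threshold. Of the muscle markers, *TpnC41C* averaged 11.64 and *Act88F*, the flight muscle actin, 6.38. The markers *ninaE*, *norpA*, *Syt1*, *Eaat1*, *to*, *Mhc*, *Act57B* and *Amy-p* were not analysed here. These levels each rest on the brightest probe set of a gene, and whether those probe sets detect the transcripts was not tested.

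Most genes varied little between control pools. The median SD over the 5 pools was 0.123 log2 units among the 6394 genes above the threshold, and 81.9% of these genes had an SD under 0.2. An SD over 0.5 was reached by 100 genes and an SD over 1 by 21. The spread fell with level, with a median SD of 0.164 in the 1211 genes below 8 and 0.0671 in the 98 genes at or above 14. By MAS5.0 the genes at or above 14 had instead the largest median SD of any level, 0.236, so the small spread of the brightest genes did not hold by that algorithm. The 30 genes with the largest SD ended with *CtBP* at 0.87 inside and *east* at 0.86 outside.

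**Figure D3:**
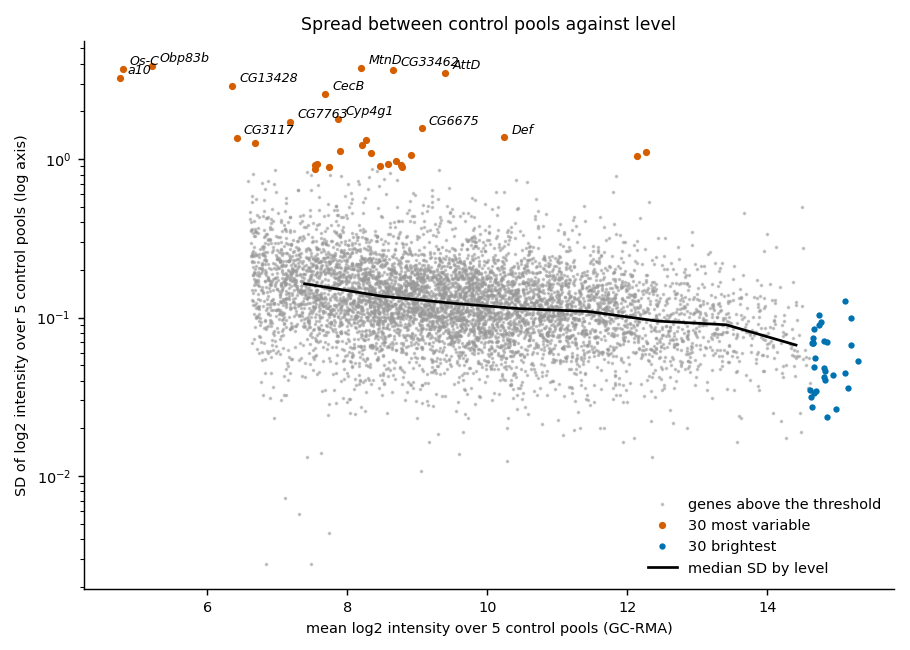
The SD of log2 GC-RMA over the 5 control pools (vertical log axis) against the mean log2 level (horizontal axis) for each gene above the threshold (grey), with the 30 most variable genes (orange, the highest named), the 30 brightest (blue) and the median SD by level (line). The bulk of genes lies under an SD of 0.2, and *Obp83b*, *MtnD*, *Os-C*, *CG33462* and *AttD* lie above 3, as does *a10*.

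The 30 most variable genes fell into a few blocks that shared high and low pools. Pool 4 was the highest in 12 of them (13% of all 6394 genes) and pool 3 the lowest in 14 (27.8% of all genes); the same values chose the genes, so nothing is read from these counts. By list, 4 were antimicrobial peptides, 1 a peptidoglycan recognition protein, 2 odorant-binding proteins, 2 other chemosensory proteins, 1 a neuropeptide and 1 a P450, and 19 were in no list.

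Some antennal genes were high in control pools 2 and 3. *Obp83b*, an odorant-binding protein of the antenna, had the largest SD, 3.89, and read 2.40, 10.04, 8.87, 2.40 and 2.36. *Os-C*, an olfactory-specific secreted protein, read 2.11, 9.60, 8.03, 2.11 and 2.11, and *a10*, an antennal protein of the chemosensory family, read 2.43, 9.26, 7.27, 2.43 and 2.42. In all 3 genes pool 2 was highest and pool 3 next, and the other 3 pools lay at the floor of the GC-RMA scale, so these genes passed the threshold only through 2 pools. The same order held where the level was higher: *Obp69a* read 7.73, 9.91, 8.97, 6.80 and 7.64, and *lush*, the binding protein needed to sense the male pheromone cVA, read 7.23, 8.61, 7.95, 6.95 and 7.18.

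Below the threshold, *Obp19a* (2.94, 7.40, 5.73, 2.80 and 2.94) and *Obp84a* (2.31, 4.92, 3.66, 2.32 and 2.30) had the same 2 pools on top. Of 57 odorant-binding and related chemosensory genes measured, 10 had pools 2 and 3 as the highest. A range over 1 log2 unit was found in 10 genes, and in 8 of these pools 2 and 3 were the highest. The range was taken over the same pools, so nothing is read from the second count. The share of all genes with pools 2 and 3 highest was not counted. *CG13428*, in no list, followed them at 3.56, 10.08, 8.73, 5.35 and 4.06. *Orco* was also highest in pool 2, at 3.10, but stayed near the floor, and no odorant receptor averaged above the threshold. The bright binding proteins *Obp99c*, *Obp19d* and *Obp44a* showed no such step.

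In the groups with a female, *Obp83b*, *Os-C* and *a10* were near the floor in all pools but mated pool 2. *Obp83b* read 2.40, 4.61, 2.40, 2.40 and 2.39 on the mated arrays and 2.39, 2.67, 2.41, 2.40 and 2.40 on the courted arrays. *Os-C* reached 5.14 in mated pool 2 and 2.25 in courted pool 2, with the other mated and courted pools between 2.11 and 2.14. *a10* reached 3.53 in mated pool 2 and lay between 2.42 and 2.45 in the other mated pools and in all courted pools. *Obp69a*, which was well above the floor, read 7.03 to 8.18 on the mated arrays and 7.10 to 7.70 on the courted arrays, and *lush* read 7.01 to 7.45 on the mated arrays and 7.01 to 7.42 on the courted arrays. Other genes high in control pool 2, noticed after their values were seen, were *CheA7a* (2.42, 6.70, 2.51, 2.95 and 2.41), *CheB93a* (2.32, 6.32, 3.41, 2.32 and 2.31) and *CheA75a* (2.32, 6.26, 3.59, 2.44 and 2.44), of the CheA and CheB families of gustatory and pheromone-related proteins, and all 3 averaged below the threshold. Some of these genes were also raised in pool 2 of the other groups. In mated pool 2 and courted pool 2, *CheA7a* read 3.67 and 5.27, *CheB93a* 4.55 and 2.31, and *CheA75a* 3.46 and 5.00. *CG13428* read 8.94 and 7.77 in the same 2 pools. On the mated arrays the rise was not confined to pool 2. In mated pools 1 and 3, *CheA7a* read 3.24 and 2.93, *CheA75a* 3.66 and 3.16, *CG13428* 6.38 and 6.35, and *CheB93a* 2.81 and 2.32. Control pool 2 also had the highest 3′ minus 5′ differences of the control pools, and their part in the values of that pool was not tested.

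Immune genes were low in control pool 3. *AttD*, attacin D, an antibacterial peptide without a signal sequence, read 13.31, 12.61, 5.39, 6.66 and 9.0, with an SD of 3.51. *CecB*, cecropin B, read 10.30, 9.94, 3.95, 6.90 and 7.31, and *Def*, defensin, read 12.07, 10.52, 8.31, 9.70 and 10.62. Pools 1 and 2 were the highest for *AttD* and *CecB*, and pool 3 was the lowest for all 3. Some of the brightest peptides shared the low value of pool 3 but not the order of the other pools: *Drs*, the antifungal drosomycin, read 14.67, 14.59, 13.63, 14.79 and 14.82, *DptB*, diptericin B, read 13.90, 13.79, 12.86, 13.93 and 13.88, and *Mtk*, metchnikowin, read 14.48, 14.40, 14.12, 14.80 and 14.74. *IM33* was instead lowest in pool 2, at 14.61, against 14.70 in pool 3.

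Related genes shared the low value of pool 3. *edin*, a peptide induced by infection, read 13.31, 12.37, 10.44, 12.27 and 12.29, and *PGRP-SC2*, an amidase that degrades peptidoglycan, read 12.71, 12.77, 10.32, 12.49 and 13.08. *CG33462*, which carries the synonym of a serine protease, read 9.28, 10.32, 2.20, 10.65 and 10.84. Its value in pool 3 was at the floor while the other 4 pools were all above 9. *CG3117*, named as a serine protease homologue, read 7.08, 7.30, 4.00, 6.88 and 6.84, *Srg1* read 9.67, 9.63, 6.77, 7.52 and 7.78, and the serpin *Spn88Eb*, outside the 30, read 12, 12.19, 10.49, 12.07 and 12.47.

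The immune genes were also low together in 1 mated pool and 1 courted pool. Of the 25 antimicrobial and peptidoglycan recognition genes above the threshold, 16 (64.0%) were lowest in mated pool 3, where 24.1% of all 6394 genes were, 19 (76.0%) were lowest in courted pool 2, where 13.4% of all genes were, and 18 (72%) were lowest in control pool 3, where 27.8% of all genes were. *AttD* read 12.13, 8.75, 3.37, 8.60 and 4.77 on the mated arrays and 8.69, 4.20, 10.20, 10.11 and 7.78 on the courted arrays. *edin* read 13.74, 12.89, 8.75, 10.99 and 8.46 on the mated arrays and 12.46, 7.84, 13.18, 13.21 and 11.74 on the courted arrays. Each group thus had pools with high and pools with low *AttD* and *edin*, and the values of the mated, courted and control pools overlapped.

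Mated and control arrays of the same number were taken as pairs, since the methods state that mated and control males of a set were collected side by side. Of the 14 genes among the 30 that were lowest in control pool 3, 10 were lowest in mated pool 3 (24.1% of all genes) and 10 were highest in mated pool 1 (23.3% of all genes). On the courted arrays 13 of these 14 were lowest in pool 2 (13.4% of all genes) and 10 were highest in pool 4 (40.6% of all genes). Across the 6394 genes, the deviations of a mated array from its group mean correlated with those of the control array of the same number at 0.342, 0.453, 0.465, 0.344 and 0.116 for numbers 1 to 5. The highest correlation of each control array with a mated array of another number was -0.070, 0.1495, 0.018, 0.110 and 0.122, so control array 5 correlated slightly more with mated array 4 than with mated array 5. Over the 100 most variable genes, control arrays 4 and 5 each correlated more with a mated array of another number (0.326 and 0.144) than with their own (0.241 and 0.127). Over the 6394 genes, the same-number correlations for the courted arrays were 0.180, -0.163, 0.214, -0.261 and 0.252. Genes are not independent here, and these values are descriptions.

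**Figure D4:**
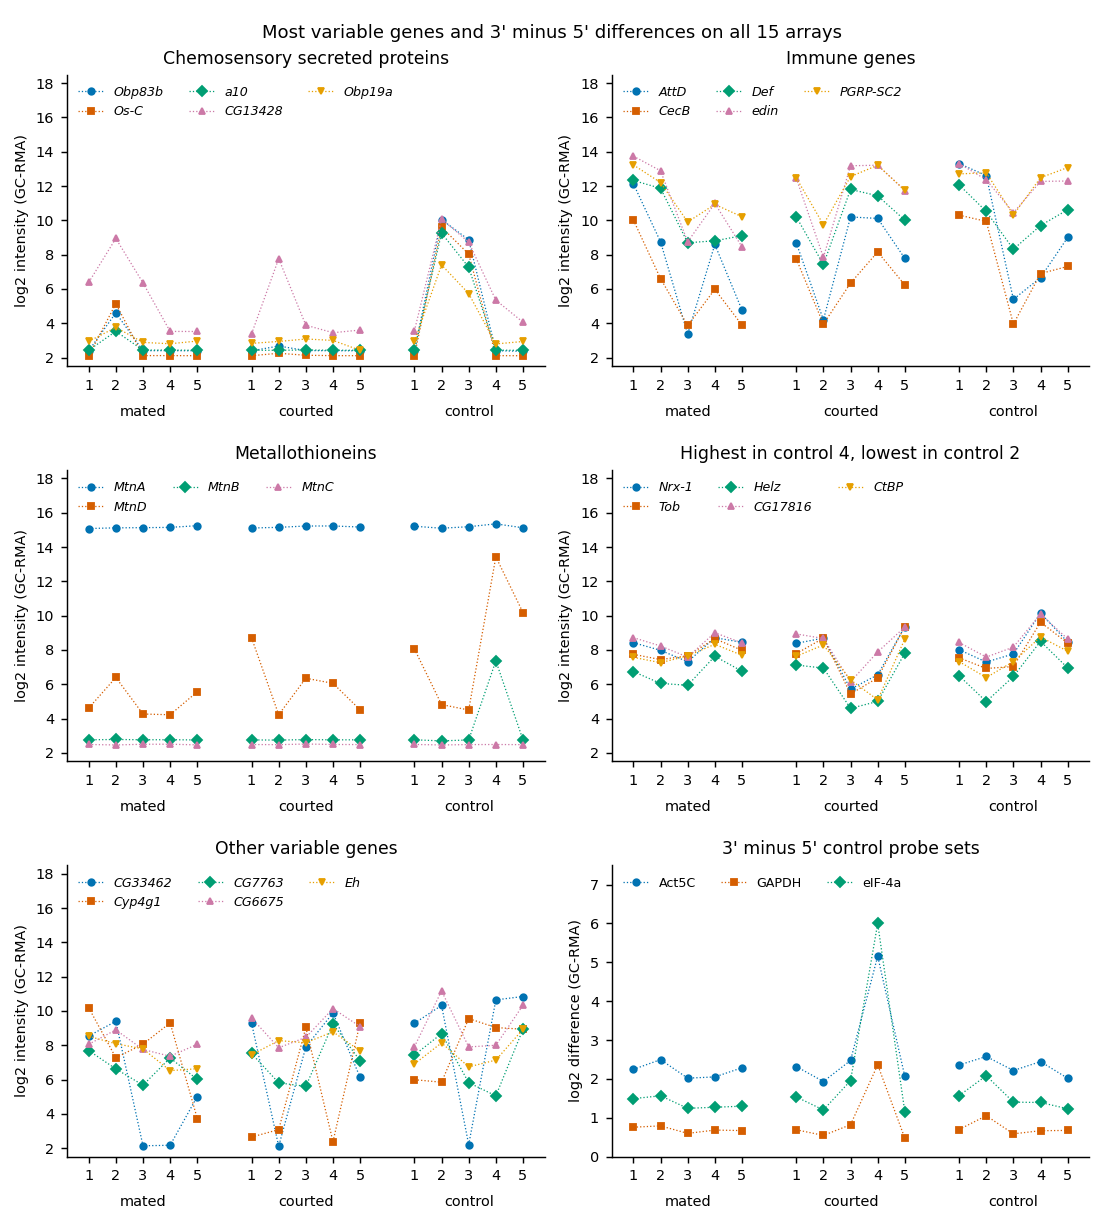
Log2 GC-RMA levels (vertical axis) of selected variable genes in mated, courted and control pools 1 to 5 (horizontal axis), a symbol for each gene and a panel for each block, with the 3′ minus 5′ differences of 3 control transcripts in the last panel; dotted lines only join the symbols of a gene. The antennal genes shown stand up in control pools 2 and 3. The immune genes shown are low in mated pool 3, courted pool 2 and control pool 3. The block with *Nrx-1* peaks in mated pool 4, courted pool 5 and control pool 4.

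Metallothioneins had their highest values in control pool 4, apart from *MtnC*. *MtnD*, whose SD of 3.76 came next after that of *Obp83b*, read 4.61, 6.39, 4.27, 4.22 and 5.56 on the mated arrays, 8.71, 4.23, 6.35, 6.05 and 4.51 on the courted arrays, and 8.06, 4.82, 4.50, 13.43 and 10.18 on the control arrays. Control pools 4 and 5 were the highest of the 15, and control pools 2 and 3 were among the low ones. *MtnB*, named after its values were seen because its mean was below the threshold, was at 7.36 in control pool 4 and between 2.70 and 2.78 on the other 14 arrays. *MtnC* stayed between 2.46 and 2.52 on every array. *MtnA*, which was near the top of the scale on every array, was also highest in control pool 4, at 15.35, and the next of the 15 arrays was mated pool 5 at 15.24.

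A block of 9 genes was highest in control pool 4 and lowest in control pool 2. It held *Nrx-1*, the synaptic adhesion protein neurexin, at 8.01, 7.30, 7.77, 10.15 and 8.46, *Tob*, a regulator of mRNA decay and proliferation, at 7.54, 6.92, 7.03, 9.62 and 8.40, and *Helz*, a putative RNA helicase, at 6.50, 4.99, 6.45, 8.51 and 6.95. Its other members were *CG11099*, *CG17816*, *CG6966*, *Frq1* (a frequenin calcium sensor), *CtBP* (a transcriptional co-repressor) and *ScsbetaG* (a succinyl-CoA synthetase subunit), with SDs between 0.87 and 0.97. All 9 were highest in mated pool 4, where 18.2% of all genes were, and in courted pool 5, where 13.9% were. They were lowest in courted pool 3 in 6 cases and in courted pool 4 in 3 cases, against 20.3% and 20.6% of all genes.

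The 3′ minus 5′ differences went with this block on some arrays and not on others. That of *eIF-4a* was at its highest in courted pool 4 (6.0), control pool 2 (2.08) and courted pool 3 (1.96), and these are the pools in which the 9 genes were low, while courted pool 5 had the lowest value (1.16). Control pool 4, where the 9 genes were highest, had 1.40, as did control pool 3, and control pool 5 had the lowest of the control pools (1.23). For *Act5C* control pool 4 had 2.45, below only control pool 2 (2.58) among the control pools. On the mated arrays, where the differences were smaller, 5 of the 9 genes were lowest in mated pool 3, which had the lowest *eIF-4a* difference of the mated pools (1.25), and 3 were lowest in mated pool 2, which had the highest (1.57). The part of these differences in the result was not tested. Among the 100 most variable genes, 44 were highest in control pool 4 (13% of all genes). The same control values ranked these genes, so nothing is read from that count. Of the 44, 35 were highest in mated pool 4 and 34 in courted pool 5, against 18.2% and 13.9% of all genes. Of the 19 neuronal genes above the threshold, 5 (26.3%) were highest in pool 4 and 9 (47.4%) in pool 5, against 13% and 19.3% of all genes. Among the highest in pool 4 were *Sh*, a potassium channel, at 10.51, 10.49, 10.64, 11.56 and 10.98, *Rdl*, a GABA receptor, at 9.10, 8.77, 9.15, 10.25 and 9.21, and *cac*, a calcium channel subunit, at 8.34, 7.82, 6.69, 8.79 and 7.92. *nSyb* was highest in pool 5, at 10.32, 10.39, 10.42, 10.99 and 11.30. *Tsf1* showed what the choice of probe set can do: its brightest probe set read 14.61, 14.69, 14.80, 14.88 and 14.72, and another read 9.56, 3.67, 11.53, 13.03 and 9.84, again lowest in pool 2 and highest in pool 4.

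Of 24 neuronal genes, the 19 above the threshold had a median SD of 0.230, and 9 of the 19 were in the most variable 10% of all genes, those with an SD over 0.2475. The glial list, by contrast, had a median SD of 0.0629 over its 12 genes above the threshold and none in that 10%. Antimicrobial peptides had 9 of 19 and peptidoglycan recognition proteins 4 of 6 genes in it. Muscle genes had 6 of 17 in it, odorant-binding proteins 7 of 20, and haemocyte and clock genes 3 of 11 each. *Clk*, the clock transcription factor, was the most variable clock gene, at 7.84, 7.95, 7.36, 8.55 and 8.22. The lists of protein and energy metabolism had few, with 1 of 69 mitochondrial ribosomal proteins, 1 of 33 cytosolic ribosomal proteins and none of 55 respiratory chain genes.

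Several lists of protein and energy metabolism shifted together by a small amount, and so did some other lists. Of the 55 respiratory chain genes, 44 (80.0%) were highest in control pool 3, as were 44 of 69 mitochondrial ribosomal proteins (63.8%) and 18 of 26 proteasome subunits (69.2%), where 23.3% of all genes were. Lists of other functions also had many genes highest in pool 3, with 8 of 11 cuticle proteins with an RR domain (72.7%) and 26 of 50 cytochrome P450 genes (52.0%). Vacuolar ATPase subunits (3 of 18, 16.7%) and translation factors (11 of 34, 32.4%) lay nearer the share of all genes. The median shift of the respiratory chain genes in pool 3 was 0.11 log2 units over the median of the 5 pools. Control pool 5 was the lowest for 27 of the 55 respiratory chain genes (49.1%) and 38 of the 69 mitochondrial ribosomal proteins (55.1%), against 15.7% of all genes. On the mated arrays no array held the highest value of more than 36.4% of the respiratory chain genes, and on the courted arrays pool 3 held 49.1%.

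The remaining variable genes had patterns of their own. *Cyp4g1*, the oenocyte P450 that makes cuticular hydrocarbons, read 10.19, 7.27, 8.06, 9.31 and 3.73 on the mated arrays, 2.65, 3.08, 9.04, 2.38 and 9.32 on the courted arrays, and 5.99, 5.85, 9.56, 9.03 and 8.93 on the control arrays. Its low pools were pool 5 of the mated, pools 1, 2 and 4 of the courted and pools 1 and 2 of the control pools. *CG6675* read 7.91, 11.17, 7.90, 8.0 and 10.33, and *CG7763* read 7.43, 8.68, 5.82, 5.05 and 8.93, both high in pools 2 and 5. *Eh*, eclosion hormone, was high in the same pools, at 6.91, 8.14, 6.74, 7.13 and 8.93. *CtsL3*, a cathepsin L protease, read 8.30, 8.87, 7.44, 9.69 and 9.50, with pools 4 and 5 high. The prophenoloxidases *PPO1* (9.83, 10.20, 10.88, 10.57 and 10.48) and *PPO2* (9.90, 10.07, 11.12, 10.67 and 10.39), melanization enzymes of crystal cells, were highest in pool 3, where the antimicrobial peptides were lowest.

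The steadiest genes included a glial and a metabolic gene. *repo* read 9.60, 9.59, 9.57, 9.59 and 9.61, and *Treh*, trehalase, which splits the blood sugar of flies, read 12.35, 12.37, 12.34, 12.37 and 12.34. By MAS5.0 their SDs were 0.05 and 0.04, small as well. Over the mated and courted pools they stood less apart from other genes. *repo* had SDs of 0.07 and 0.10 there and *Treh* 0.08 and 0.06, against medians of 0.0908 and 0.128 for all 6394 genes. *Bulli* and *CG13096* had the smallest SDs, 0.0028 each, where every pool of *Bulli* read 7.49, but by MAS5.0 their SDs were 0.34 and 0.17. For these 2 genes the near-identical GC-RMA values were not shared by the other algorithm.

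The variable genes were variable in the other groups too. The 30 most variable genes of the control pools had a median SD of 0.918 over the mated pools, 1.37 over the courted pools and 1.24 over the control pools, where the medians of all 6394 genes were 0.0908, 0.128 and 0.123. All 30 were among the genes of highest SD over the mated pools, a class that held 10% of all genes, and 26 were in that class over the courted pools (9.96% of all genes), and 19 and 18 were among the 30 most variable there. Within the control arrays, 25 of the 30 were among the 30 most variable by dChip PM and 27 by MAS5.0 and by GeneSpring GC-RMA. Spearman's rho of the SDs with GC-RMA over the 6394 genes was 0.698 for dChip PM, 0.587 for MAS5.0 and 0.937 for GeneSpring GC-RMA.

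Mated and courted arrays were each set against the control arrays with limma, with the replicate number as a block. No probe set of 7622 passed an adjusted p of 0.05 in either comparison. At an unadjusted p under 0.05 there were 727 probe sets between mated and control heads (9.54%; 278 or 3.65% higher and 449 or 5.89% lower in mated) and 248 between courted and control heads (3.25%; 151 or 1.98% higher and 97 or 1.27% lower in courted), and limma-trend called 9 and 0 after adjustment. For the courted arrays the number was not taken as a pairing. With no block, 177 of 7622 probe sets differed between courted and control heads at an unadjusted limma p under 0.05, and 0 passed after adjustment. None of the 30 brightest genes was among the 727 or the 248. They were ranked on control values that enter both comparisons, so nothing is read from this.

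The 30 most variable genes were chosen on the values of the control arrays that enter both comparisons, a choice that favours genes with some high control values, so no test of them against the control arrays is given. For some of them, values in the mated and courted pools are given above beside those of the control pools.

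The replicate number itself was tested on the 10 mated and courted arrays, which played no part in the ranking by control SD. No probe set passed an adjusted p of 0.05 by limma or by limma-trend, and 372 (4.88%) had an unadjusted p under 0.05 by limma, as did 2157 of 15641 by dChip PM (13.8%). On the mated and control arrays, a setting chosen after seeing the data, 1110 of 7622 (14.6%) had an unadjusted p under 0.05 and 0 passed after adjustment. Of the 30 most variable genes, 3 were among the 372, *CG13428*, *CG7763* and *Srg1*, and none of the 30 brightest was. No difference by number between these 10 arrays passed the test. Courted arrays were taken to share only a number with the other groups, so the test cannot show whether pools of a set differ.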

How the data were processed

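Each array held biotin-labelled RNA from a pool of 30 male heads on the Affymetrix *Drosophila* Genome 2.0 array. The authors deposited intensity values on a linear scale, extracted from every array by 5 algorithms (R/Bioconductor GC-RMA, GeneSpring GC-RMA, dChip PM, dChip with mismatch probes and MAS5.0); GCOS 1.2 and GCRMA are named in the submitters' processing notes. The 5 versions of an array counted as 1 replicate. The GeneSpring columns had an empty place at position 3092, and later values were moved by 1 row to their own probe sets.

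From these values, intensities were floored at 1 and taken to log2. The table held 18952 probe sets, of which 183 spike and control sets were dropped. Of the remaining 18769, 13647 had 1 gene symbol in the platform annotation, 402 several and 4720 none, and 13544 matched a current gene by Entrez ID. The brightest probe set by mean over the control arrays stood for each of 11982 genes (1094 had several). The threshold was a mean intensity above 100 (50 for dChip PM). Named were the 30 genes highest in level, the 30 highest and 10 lowest in SD, up to 5 by level and 4 by SD of each list, and members of outside-tissue lists above the threshold. The members, the 38 lists and the tests were chosen with earlier results of these data known, and genes outside that rule are named as such or stand in a list or marker set. Level and SD were described without a test. Comparisons used the moderated test of limma (version 3.58.1, under R 4.3.3; two-sided, Benjamini-Hochberg over 7622 probe sets with a control mean above 100); the code was tested on simulated data. Tables were handled with pandas 2.3.3 under Python 3.11.15 and figures drawn with matplotlib 3.10.9.

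The study's methods pair mated and control samples of a set, and the number was taken as that pairing for mated against control. The deviations of same-numbered arrays of these 2 groups correlated at r from 0.116 to 0.465 across 6394 genes. Control array 5 correlated slightly more with mated array 4 (0.122) than with mated array 5. Courted arrays were taken to share only a number (r from -0.261 to 0.252). Alternatives were the other algorithms, other filters, another rule for probe sets, other measures of spread, a median shift per array, limma-trend, no replicate block and leaving out each replicate. The number of arrays, 5 in a group, limits the precision. The platform's probe sequences were not used here, and no sequence is printed.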

Additional observations from a re-analysis of the deposited data

Results flagged for a closer look

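Among the control pools, 25 of 160 named genes had a single pool whose gap to the nearest other pool, as a share of the gene's whole range, was above Dixon's critical value for 5 samples (0.71). Chance flags about 1 in 20 groups, and the genes were chosen partly for their spread. Pool 3 was the lowest in 6 of the 25, the most for any pool and side: *Drs* (0.812), *DptB* (0.867), *PGRP-SC2* (0.785), *CG33462* (0.819), *CG3117* (0.86) and *Spn88Eb* (0.763), all discussed above with the immune genes. Pool 2 stood above the rest for *Orco* (0.944), *CheA7a* (0.876) and *CheB93a* (0.724) and below it for *Nplp2* (0.917), *para* (0.751) and *fabp* (0.79). Pool 4 stood above the rest for *MtnB* (0.986), *CG11099* (0.792) and *CG6966* (0.726) and below it for *Or43b* (0.859), *Lip2* (0.753) and *Obp56d* (0.767). Pool 3 stood above the rest for *Pxn* (0.823), *Or63a* (0.847) and *COX7AL2* (0.806). Pool 5 stood above the rest for *brp* (0.964), *chp* (0.757) and *Shab* (0.966) and below it for *fit* (0.733).

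Of 18 measures of array quality by group, 4 had an array apart by the same measure. Courted pool 4 was apart in the 3′ minus 5′ difference of *Act5C* (0.832), GAPDH (0.816) and *eIF-4a* (0.835), and control pool 2 was apart in that of GAPDH (0.761).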

How the results depend on the processing

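Of 87 values of the main results under other settings, 79 stayed within the limits set for them and 8 moved. By dChip PM with its threshold of 50, 10640 genes were above the threshold in place of 6394. Of the 30 most variable genes, 19 were shared when genes were ranked by dChip PM over its own threshold, 15 when all 5 control arrays had to be above 100, and 17 without control pools 2 and 3, a setting chosen after seeing the data. Leaving out each control replicate in turn gave 6361 to 6404 genes above the threshold, 29 to 30 of the brightest genes shared, 21 to 28 of the most variable genes shared and a median SD of 0.1103 to 0.1241. Mated against control had 9 calls by limma-trend (3 higher and 6 lower in mated), 1 without replicate 4 and 1 with no replicate block (532 unadjusted), in place of 0, and 0 to 1 when each replicate was left out. Courted against control had 0 calls under every setting run, with 177 unadjusted with no replicate block. The number effect had 0 to 2 calls when each replicate was left out, with 2 without replicate 2, and 0 on all 15 arrays, on mated and control arrays and without courted replicate 4, the last of these settings and the one before it chosen after seeing the data. No cause of these differences was tested. Of 1120 mean levels of named genes under other settings 5 moved by more than their spread, and of 1320 SDs 190 moved. Values near 2 on the log2 GC-RMA scale carry no order between genes, since signal there was not above the background estimate.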
